A study of Mus musculus with 6 samples.

Results

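Wnt ligands and Frizzled receptors were followed in PICs and in satellite cells of young mouse muscle. The genes were Wnt2, Wnt4, Wnt5a, Wnt9a, Wnt11, Fzd1, Fzd2, Fzd4, Fzd7 and Fzd8, chosen by name with earlier results of these data known. Every probe set with one of these as its only platform gene symbol was taken, which gave 22 of the 45037 probe sets in the table, for 10 of 18193 named genes. Hindlimb muscle of C57 black 6 mice, 7 to 9 days old, was digested to obtain both populations, with no genotype change or treatment given in the labels. They were separated by flow cytometry on CD34 and Sca1. PICs are known in the field as PW1-expressing interstitial cells, and satellite cells are the stem cells that lie along muscle fibres. Each population has 3 arrays called biological replicates, and nothing says whether a replicate was 1 mouse or a pool, so p-values measure the spread between these samples. The comparison asks which ligand and receptor transcripts differ between the populations at this age.

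Wnt proteins are secreted, lipid-modified ligands. They bind the cysteine-rich outer domain of Frizzled receptors, which span the membrane like G protein-coupled receptors. With the co-receptors Lrp5 or Lrp6, a Wnt stabilises beta-catenin, which acts with TCF/LEF factors on target genes. With Ror2, Ryk or Vangl proteins, others act on cell polarity and calcium without beta-catenin. In muscle, Wnt signals are known for roles in satellite cell division, in differentiation and in the behaviour of interstitial cells.

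Values are deposited array intensities, summarised per probe set, on a linear scale unless log2 is stated. The median was 10 on each array. A log2 value of 4 (intensity 16) is called the low value level here, and a probe set was tested when at least 3 of the 6 arrays lay above it. A probe set was called at an adjusted p under 0.05 and a difference of at least 1 on the log2 scale (2-fold). The sorted populations carried the markers fixed for them. Summed over the 5 interstitial markers measured (Cd34, Peg3, Pdgfra, Dcn and Osr1), intensities were 77285 to 79687 on PIC arrays and 28079 to 35083 on satellite arrays. Over the 7 satellite cell markers (Pax7, Myf5, Myod1, Cdh15, Calcr, Vcam1 and Itga7) they were 4253 to 5595 and 32530 to 35258. Interstitial markers were thus read on the satellite arrays too, and satellite cell markers on the PIC arrays. Most of the interstitial sum on the satellite arrays was Peg3, the gene for PW1, which read 21709, 21661 and 20679 in PICs and 17875, 18378 and 19812 in satellite cells and was not called (limma, log2 difference 0.19, adjusted p = 0.174). Without Peg3 the sums were 56606 to 57978 and 9701 to 15271. Ly6a, fixed as a further interstitial marker, was not found by name on the array. The sort itself used CD34, so the Cd34 values are no separate check of it. Markers of other cell types were called in 0 of 10 endothelial genes, 0 of 4 blood cell genes, and 1 of 5 Schwann cell genes, the last higher in PICs (limma; 0 endothelial or blood cell genes at an unadjusted p under 0.05). Called genes lay in both directions among 7 pericyte and smooth muscle genes (1 higher in PICs, 2 in satellite cells), 4 tendon genes (1 and 1) and 8 muscle fibre genes (2 and 2). Over all 10855 genes tested, 16.6% were called towards PICs and 13.0% towards satellite cells. The summed blood cell markers were 2331 and 3098 on the arrays numbered 1 and between 70 and 294 on the rest. In bulk samples, fewer cells of a type and less RNA per cell cannot be told apart.

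Of the 22 probe sets, 13 from 7 genes were high enough to be tested, and 12 of those had all 6 arrays above the low value level. In this set 10 probe sets, from Wnt5a, Fzd1, Fzd2, Fzd7 and Fzd8, were called higher in PICs, and 0 were called higher in satellite cells (limma, Benjamini-Hochberg; 0 of the remaining 3 had an unadjusted p under 0.05). Over all 20606 probe sets tested, the calls came to 14.5% towards PICs and 12.5% towards satellite cells. The members were chosen with earlier results of these data known, so setting their count beside these shares is not a test. The other 3 measured probe sets belong to Wnt9a and Fzd4. In the 10 called probe sets all PIC arrays lay above all satellite arrays, which held for 26.8% of all probe sets tested. The remaining 9 probe sets read between 4 and 15 on every array.

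**Figure D1:**
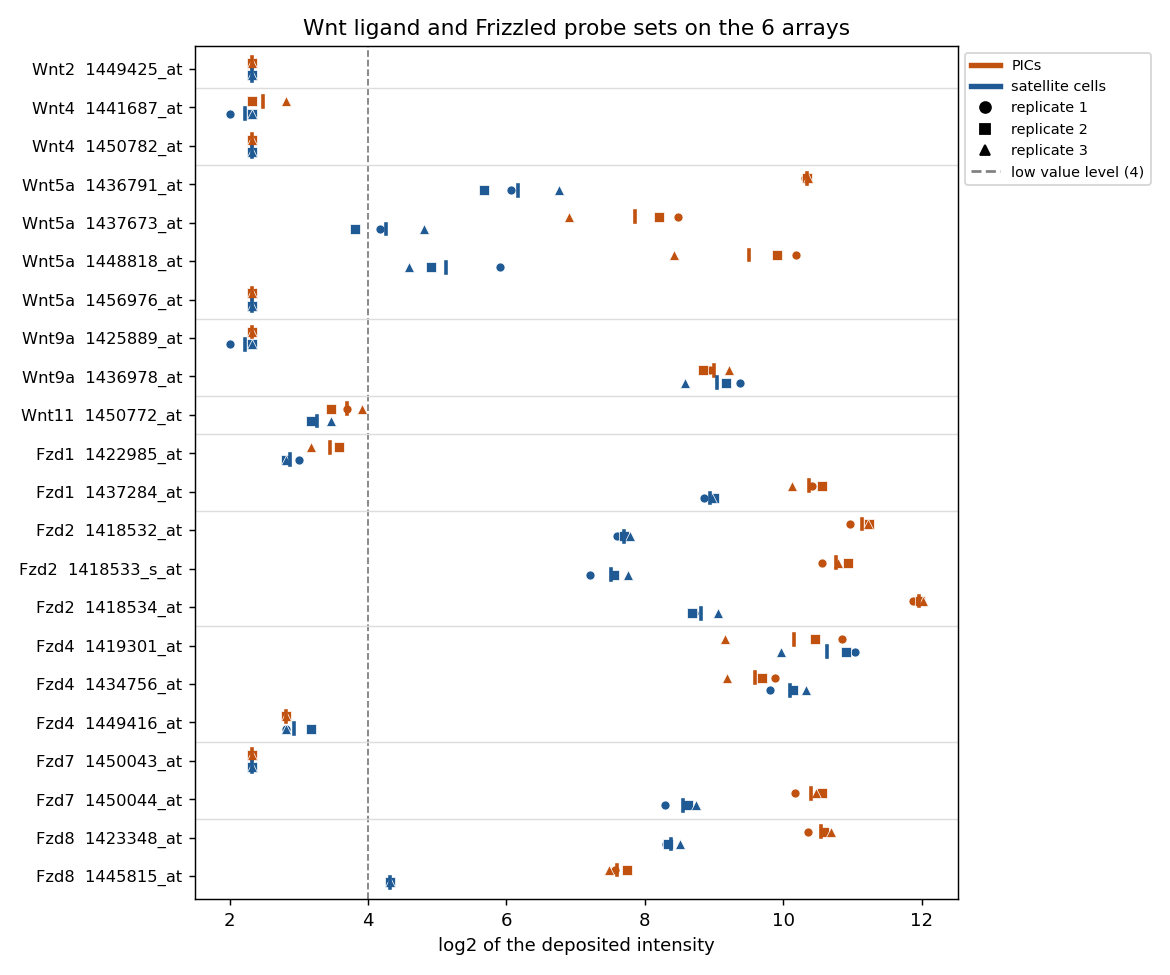
Each point is 1 array, on the log2 scale of the deposited intensity, for all 22 probe sets of the 10 genes (orange, PICs; blue, satellite cells; symbols, replicate numbers; short bars, means of 3 arrays). The populations stand apart for Wnt5a, Fzd1, Fzd2, Fzd7 and Fzd8, overlap for Wnt9a and Fzd4, and 9 probe sets lie left of the dashed low value level at 4.

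Among the ligands, Wnt5a was the member with a difference between the populations. Wnt5a is a ligand best known for signalling without beta-catenin, through Ror2. Its probe set 1436791_at read 1266, 1302 and 1312 in PICs and 67, 51 and 108 in satellite cells. The PIC arrays were close together, and the lowest of them was far above the highest satellite array. The log2 difference was 4.17 (SE 0.27, 95% interval 3.50 to 4.84; 18.0-fold; limma, adjusted p = 0.000198), which ranked 155 from the top of the 20606 tested.

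The other measured Wnt5a probe sets gave the same direction with more spread. Probe set 1448818_at read 1165, 965 and 341 in PICs and 60, 30 and 24 in satellite cells, a log2 difference of 4.37 (95% interval 3.01 to 5.74; limma, adjusted p = 0.00136). Probe set 1437673_at read 355, 295 and 120 against 18, 14 and 28, a log2 difference of 3.60 (95% interval 2.46 to 4.74; limma, adjusted p = 0.00144). On both, PIC replicate 3 was the lowest of the PIC arrays, whereas 1436791_at read nearly the same on all PIC arrays. Taken at equal replicate numbers, the log2 differences of 1437673_at were 4.30, 4.40 and 2.10. Its satellite values lay near the low value level, with satellite replicate 2 under it. The size of its fold thus rests on values near the floor. A further probe set, 1456976_at, read 5 on all 6 arrays, so 3 of the 4 Wnt5a probe sets carried a measured level.

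Satellite replicate 3 had the highest Wnt5a value of its population on 1436791_at and 1437673_at, and the lowest on 1448818_at (60, 30 and 24). Pdgfra, a receptor that marks interstitial cells, was highest on that array, at 513, 449 and 1074 in satellite cells against 10133, 9265 and 9081 in PICs. Its part in the satellite value of Wnt5a was not tested. Without satellite replicate 3 the Wnt5a difference on 1436791_at stayed called.

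Wnt9a, a ligand known from joint formation, was measured in both populations at like levels. Probe set 1436978_at read 493, 459 and 593 in PICs and 663, 578 and 383 in satellite cells. The arrays overlapped, with the highest and the lowest value both in satellite cells. The log2 difference was -0.04 (95% interval -0.61 to 0.53; limma, adjusted p = 0.899), which leaves room for a difference of less than 2-fold in either direction. At equal replicate numbers the log2 differences were -0.43, -0.33 and 0.63, so the sign turned between pairs. The other Wnt9a probe set, 1425889_at, read 4 or 5 on every array.

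Wnt2, Wnt4 and Wnt11 had no level above the filter. Wnt2 read 5 on all 6 arrays, as did 1 of the 2 Wnt4 probe sets, and the other Wnt4 probe set read 4 to 7. Wnt11, a ligand of the polarity branch, came nearest to the low value level, at 13, 11 and 15 in PICs and 9, 9 and 11 in satellite cells. These values lie where background correction leaves unexpressed probe sets, and no test or fold is given for them. A value there does not show that a transcript was absent.

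Fzd2 was the receptor with the largest difference, and its 3 probe sets gave like values. Fzd2 is a Frizzled that binds Wnt5a among other ligands. Probe set 1418534_at read 3750, 4029 and 4161 in PICs and 417, 411 and 530 in satellite cells. The spread within each population was small beside the gap between them. The log2 difference was 3.14 (SE 0.14, 95% interval 2.80 to 3.49; 8.85-fold; limma, adjusted p = 9.29e-05). Probe set 1418532_at read 1989, 2409 and 2393 against 193, 207 and 221, a log2 difference of 3.45 (95% interval 3.13 to 3.76; limma, adjusted p = 7.63e-05). Probe set 1418533_s_at read 1506, 1955 and 1768 against 147, 187 and 217, a log2 difference of 3.26 (95% interval 2.80 to 3.71; limma, adjusted p = 0.000153). The name of this last one marks possible hybridisation to related transcripts, and its interval overlapped those of the other two.

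Fzd8, a receptor of the beta-catenin branch, was higher in PICs on both of its probe sets, by different amounts. Probe set 1423348_at read 1309, 1546 and 1648 in PICs and 316, 322 and 365 in satellite cells, a log2 difference of 2.16 (SE 0.14, 95% interval 1.83 to 2.49; 4.48-fold; limma, adjusted p = 0.000181). Probe set 1445815_at read 189, 213 and 179 against 20 on each satellite array, a log2 difference of 3.27 (95% interval 3.00 to 3.55; limma, adjusted p = 6.54e-05). The 2 intervals did not overlap. The satellite value of the second probe set lay just above the low value level, so the size of its fold rests on a value near the floor.

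Fzd7 and Fzd1 differed by less. Fzd7, a receptor known in satellite cells as one through which Wnt7a acts, read 1156, 1512 and 1422 in PICs and 312, 394 and 429 in satellite cells on 1450044_at. Its log2 difference was 1.85 (SE 0.17, 95% interval 1.43 to 2.28; 3.61-fold; limma, adjusted p = 0.000481). Fzd7 was thus measured on every satellite array, at a level below that of PICs. Its other probe set, 1450043_at, read 5 on all 6 arrays. Fzd1, closely related to Fzd2 and Fzd7, read 1364, 1506 and 1115 in PICs and 464, 513 and 502 in satellite cells on 1437284_at. Its log2 difference was 1.42 (SE 0.15, 95% interval 1.07 to 1.77; 2.68-fold; limma, adjusted p = 0.000617). The other Fzd1 probe set, 1422985_at, read 12, 12 and 9 against 8, 7 and 7 and was not tested.

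By size of the log2 difference on the probe set of highest mean, the receptors ran from Fzd2 through Fzd8, Fzd7 and Fzd1 to Fzd4. The 95% intervals of Fzd2 and Fzd8 did not overlap, while those of Fzd8 and Fzd7, and of Fzd7 and Fzd1, did. With 1445815_at in place of 1423348_at, Fzd8 stood beside Fzd2. Adding 16 to each value before log2 brought 1445815_at to 2.54 and Fzd2 1418534_at to 3.10. Differences between these genes were not tested, and probe set levels are not set against each other.

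**Figure D2:**
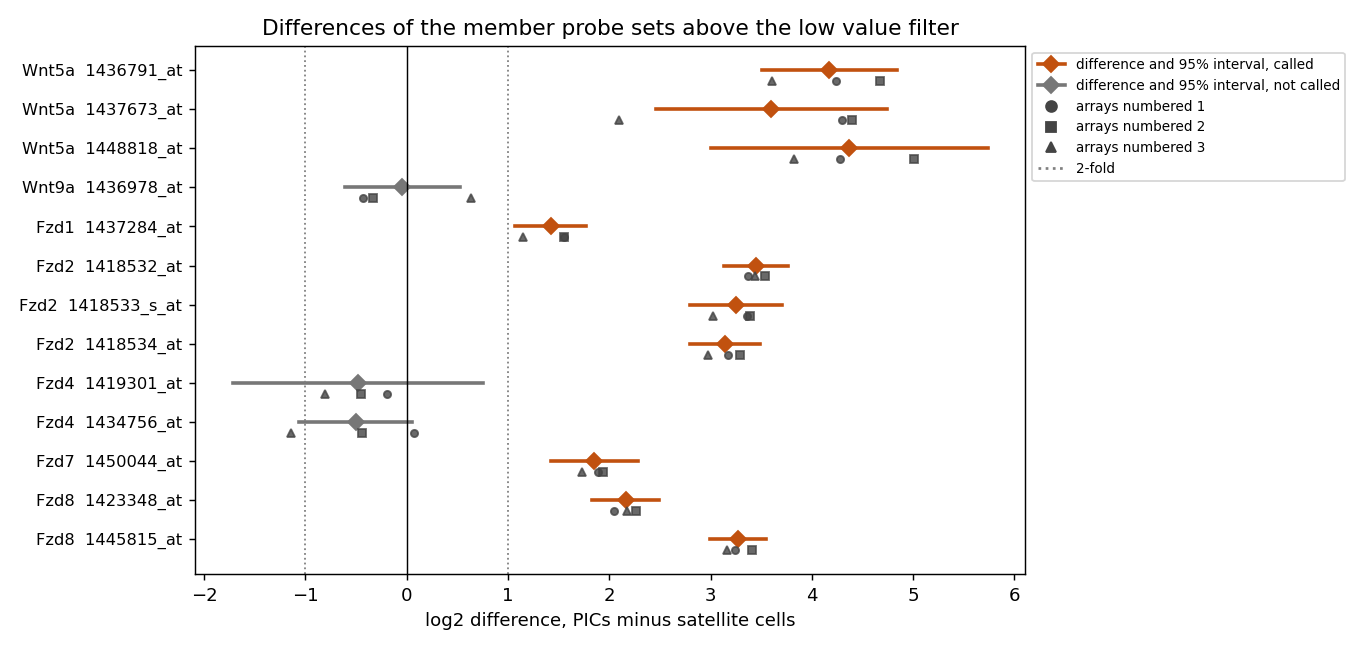
Diamonds give the log2 difference, PICs minus satellite cells, with its 95% interval (limma) for the 13 probe sets above the low value filter; small symbols give the differences between arrays of equal replicate number. The 10 called probe sets (orange) lie right of the 2-fold line, and the probe sets of Wnt9a and Fzd4 (grey) have intervals that include 0.

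Fzd4 was the measured receptor that was not called. Fzd4 is the receptor of norrin as well as of Wnts and is known for its role in endothelium. Probe set 1419301_at read 1846, 1408 and 571 in PICs and 2105, 1921 and 998 in satellite cells. The arrays overlapped, and replicate 3 was the lowest in both populations. The log2 difference was -0.48 (95% interval -1.72 to 0.76; limma, adjusted p = 0.473). Probe set 1434756_at read 940, 827 and 585 against 895, 1126 and 1289, a log2 difference of -0.50 (95% interval -1.06 to 0.05; limma, adjusted p = 0.117). Here satellite replicate 3 was the highest satellite array, unlike on the first probe set. The remaining probe set, 1449416_at, read 7 to 9 on all arrays. Without PIC replicate 3, 1419301_at differed by 0.02 (adjusted p = 0.973). At equal replicate numbers its log2 differences were -0.19, -0.45 and -0.81, and with the replicate number as a block the interval was -0.89 to -0.07 (adjusted p = 0.0517).

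Endothelial markers varied between replicates on the same arrays. All 10 (Pecam1, Cdh5, Kdr, Tek, Tie1, Emcn, Cldn5, Vwf, Esam and Egfl7) were measured and 0 were called (limma; 0 at an unadjusted p under 0.05). Their summed intensity was 8234, 6188 and 2403 in PICs and 6070, 4697 and 4300 in satellite cells, lowest on replicate 3 in each population, as was Fzd4 on 1419301_at. Replicate 3 was the lowest PIC array for 10 of the 10 genes and the lowest satellite array for 7 of them, Cdh5 included. Cdh5, the cadherin of endothelium, read 2146, 1683 and 362 in PICs and 1407, 851 and 658 in satellite cells. Tek and Cldn5 were instead highest on satellite replicate 3, at 889, 939 and 1026 for Tek and 784, 618 and 821 for Cldn5, and Esam was lowest on satellite replicate 2. Actb, which encodes beta-actin, also had a probe set with replicate 3 lowest in each population, at 25027, 23247 and 16978 against 27039, 26609 and 21541. That probe set is among the 5 found most alike to Fzd4 on 1419301_at by correlation over the 6 arrays (0.992). It is therefore no independent reference for this pattern. Another Actb probe set read 5346, 5648 and 4921 against 4477, 5251 and 4695. The part of endothelial cells or of RNA quality in the values of Fzd4 was not tested.

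**Figure D3:**
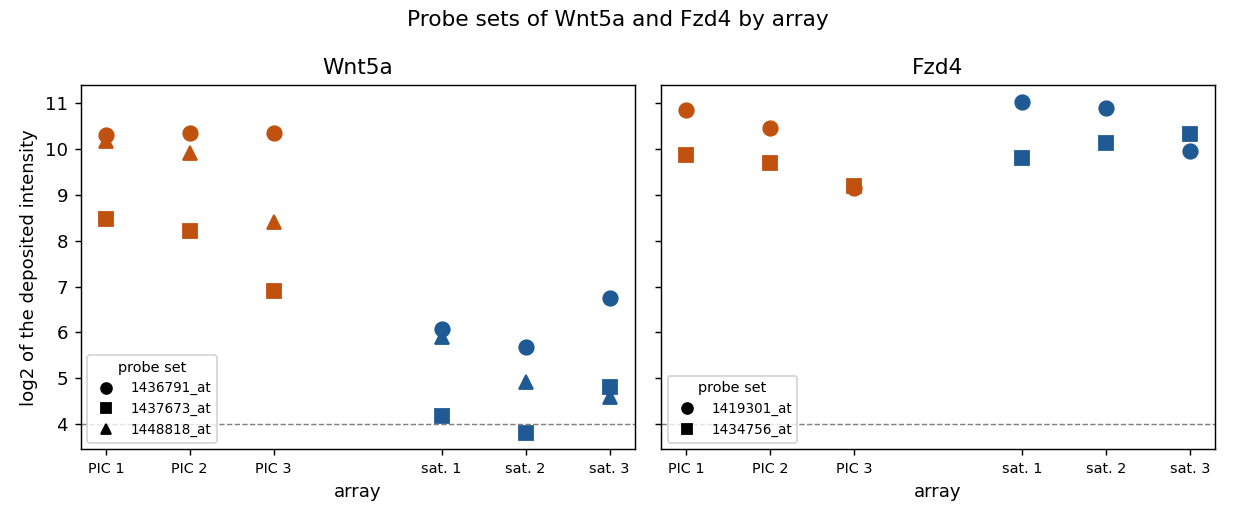
Points give the log2 intensity of each measured probe set of Wnt5a and Fzd4 on each array (orange, PICs; blue, satellite cells; symbols, probe sets; dashed line, the low value level of 4). On PIC replicate 3, 2 Wnt5a probe sets and both Fzd4 probe sets are at their lowest in PICs, while Wnt5a 1436791_at is level across the PIC arrays.

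Promoter windows are shown for the measured members that RefSeq's table for GRCm38.p6 lists, to set 2 receptors that were higher in PICs (Fzd1 and Fzd7) beside 2 genes that were not called (Fzd4 and Wnt9a). Entries were found for 7 of the 10 genes and for 4 of the 7 measured ones. Each window runs from 250 bases before the annotated start to 50 after it, 5′ to 3′ on the gene's strand. Capitals mark matches, on either strand, to any of 4 motifs. The TCF/LEF core was searched as CTTTGA. The E-box bound by myogenic factors, among others, was searched as CAGCTG. The GC box was searched as GGGCGG. The TATA box was searched as TATAAA.
Fzd1, chr5:4758167-4758466, strand -: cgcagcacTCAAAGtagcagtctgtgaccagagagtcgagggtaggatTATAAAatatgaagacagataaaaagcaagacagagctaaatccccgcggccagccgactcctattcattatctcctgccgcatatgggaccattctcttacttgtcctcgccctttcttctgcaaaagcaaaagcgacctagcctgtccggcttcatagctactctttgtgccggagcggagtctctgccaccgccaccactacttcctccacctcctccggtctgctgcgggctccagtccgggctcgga
Fzd7, chr1:59481897-59482196, strand +: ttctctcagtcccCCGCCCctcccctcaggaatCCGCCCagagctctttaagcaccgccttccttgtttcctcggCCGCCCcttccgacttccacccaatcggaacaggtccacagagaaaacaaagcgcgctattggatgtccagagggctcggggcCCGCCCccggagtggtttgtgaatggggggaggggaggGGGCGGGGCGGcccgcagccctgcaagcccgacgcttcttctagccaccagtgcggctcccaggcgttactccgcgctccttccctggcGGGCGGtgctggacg
Fzd4, chr7:89404116-89404415, strand +: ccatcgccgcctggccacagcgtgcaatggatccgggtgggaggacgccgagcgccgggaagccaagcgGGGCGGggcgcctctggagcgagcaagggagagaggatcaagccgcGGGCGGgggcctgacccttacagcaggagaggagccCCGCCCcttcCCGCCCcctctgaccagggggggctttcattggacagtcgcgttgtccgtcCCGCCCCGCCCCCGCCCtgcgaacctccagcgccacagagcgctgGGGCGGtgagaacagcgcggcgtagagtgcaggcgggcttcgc
Wnt9a, chr11:59306680-59306979, strand +: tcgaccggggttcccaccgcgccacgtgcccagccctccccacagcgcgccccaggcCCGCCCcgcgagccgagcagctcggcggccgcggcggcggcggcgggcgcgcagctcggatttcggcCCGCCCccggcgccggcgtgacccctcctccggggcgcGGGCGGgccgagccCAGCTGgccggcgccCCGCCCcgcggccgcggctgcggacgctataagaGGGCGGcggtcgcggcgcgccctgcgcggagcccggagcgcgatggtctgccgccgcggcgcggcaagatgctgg

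The windows of the called pair were unlike each other. Fzd1 held 1 TCF/LEF core, on the other strand with its first printed base at -242, and 1 TATA box at -202, with 0 GC boxes. Fzd7 held 7 GC boxes and 0 matches to the other motifs. The window of Fzd4, which was not called, resembled that of Fzd7 in holding 8 GC boxes and 0 matches to the rest. Wnt9a held 5 GC boxes and 1 E-box at -74. Neighbouring GC boxes in Fzd4 and Fzd7 partly overlap or abut. Of 32851 promoter windows of this length, 35.7% held a GC box, 16% a TCF/LEF core, 16.3% this E-box and 13.6% a TATA box. A match describes letters and is no evidence of binding.

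The rest of both families was examined by name. The array carries 19 Wnt genes, of which 4 had a probe set above the filter (Wnt5a, Wnt5b, Wnt6 and Wnt9a), and 10 Frizzled genes, of which 8 did (all but Fzd9 and Fzd10). Wnt6, a ligand of epithelia, was called higher in PICs. It read 38, 56 and 61 in PICs and 9, 11 and 11 in satellite cells. With the satellite value set at the low value level, it was at least 3.16-fold higher. The adjusted p of 0.000445 (limma) belongs to the fitted difference, whose satellite values all lay under that level. Wnt6 passed the filter through its PIC arrays alone. Its probe set is of a kind that may bind related transcripts. Another Wnt6 probe set also passed the filter, and its values are not given here. Wnt5b, the ligand closest to Wnt5a, read 62, 82 and 95 against 64, 74 and 100, a log2 difference of 0.01 (95% interval -0.56 to 0.58; limma, adjusted p = 0.98).

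None of the 3 other measured Frizzled genes was called by limma, although 2 had an unadjusted p under 0.05. Fzd5 read 506, 626 and 973 in PICs and 104, 242 and 457 in satellite cells, with no overlap. Its log2 difference of 1.58 (95% interval 0.22 to 2.94) had an adjusted p of 0.0584 by limma, and of 0.0079 with the replicate block and it was called under 7 of 17 alternatives. Fzd6 differed by 0.94 (limma, adjusted p = 0.0392), under 2-fold, and was called higher in PICs under 3 of 17 alternatives: without PIC replicate 3 (1.06), without satellite replicate 1 (1.21) and without both arrays numbered 1 (1.00). Fzd3, a receptor of the polarity branch, differed by 0.29 (95% interval -0.18 to 0.75; limma, adjusted p = 0.263).

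Genes around the receptors were counted from 8 lists that hold 99 genes, of which 63 were tested. The lists, like the members, were chosen with earlier results of these data known. Each gene was represented by its probe set of highest mean. In all, PICs had the higher level in 27 of the 63 by the call rule and satellite cells in 5, and the median log2 difference was 0.81. Among the 27, Wnt6, Rspo1, Rspo3 and Nkd2 passed the filter through PIC arrays alone, with every satellite array under the low value level. Over all 10855 genes tested, the shares called were 16.6% towards PICs and 13.0% towards satellite cells, and the median was -0.04. Among the member genes, 5 of 7 tested were called higher in PICs, with a median of 1.85.

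Co-receptors and regulators of receptor turnover were called in 4 of 9 tested genes, 3 towards PICs and 1 towards satellite cells (median 0.38). Ror2, the receptor tyrosine kinase that binds Wnt5a, read 796, 878 and 1439 in PICs and 94, 109 and 172 in satellite cells. Its log2 difference was 3.05 (limma, adjusted p = 0.000646), so Ror2, Fzd2 and Wnt5a were all called higher in PICs. Ryk and Ror1, from the same list, were not called. Ryk differed by -0.18 (limma, adjusted p = 0.661), and its arrays overlapped. Ror1 differed by 0.86 (limma, adjusted p = 0.0032), under 2-fold, and was called with the mean of its probe sets (1.06). Reck, a membrane protein that presents Wnt7 ligands, differed by 3.03, and the co-receptor gene Lrp6 by 1.15. Lrp6 was not called without PIC replicate 1 (0.998, under 2-fold; limma, adjusted p = 0.0311) or with no filter on low values (adjusted p = 0.0558). Nor was Lrp6 called with the mean of its probe sets (0.95) or without both arrays numbered 1 (limma, adjusted p = 0.0868). Tspan12, the tetraspanin that works with Fzd4 in norrin signalling, read 310, 181 and 125 in PICs and 1306, 1667 and 1488 in satellite cells, a log2 difference of -2.95 (limma, adjusted p = 0.000863). Tspan12 was therefore higher in satellite cells while Fzd4 itself was not called. Norrin (Ndp) and Lrp5 were too low to be tested.

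Genes of ligand processing were called towards PICs in 4 of 5 tested genes and towards satellite cells in 0 (limma; 0 in that direction at an unadjusted p under 0.05; median 1.64). Wls, the carrier that brings Wnt proteins to the cell surface, read 1054, 1338 and 1762 in PICs and 348, 330 and 464 in satellite cells, a log2 difference of 1.85 (limma, adjusted p = 0.0013). The glypican genes Gpc6, Gpc3 and Gpc4, whose products hold Wnts at the membrane, differed by 2.35, 1.64 and 1.42. Porcn, the enzyme that attaches the lipid to Wnts, differed by 0.25 (limma, adjusted p = 0.196).

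Secreted modulators had the highest median of the lists, at 3.20 (2.88 when a lower bound replaces the fitted value of the genes that have only a bound), and 8 of 11 tested genes were called higher in PICs. They were Sfrp1, Sfrp4, Sfrp5, Dkk2, Dkk3, Rspo1, Rspo3 and Sostdc1, most of which bind Wnts or their receptors. Sfrp4 and Dkk2 differed by 4.41 and 3.92, and Rspo3 was at least 14.9-fold higher. Rspo1 and Rspo3 passed the filter through PIC arrays alone. Sfrp1, which binds Wnts outside the cell, differed by 3.49 (limma, adjusted p = 0.000267). Kremen1, counted in this list although it encodes a receptor for Dkk proteins, was its 1 gene called higher in satellite cells. Kremen1 differed by -2.14 (limma, adjusted p = 0.000462).

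Cytoplasmic and nuclear effectors differed little, with 2 of 13 tested genes called towards PICs, 0 towards satellite cells (limma; 4 in that direction at an unadjusted p under 0.05) and a median of -0.17. Tcf7l2, a TCF factor known in muscle connective tissue cells, read 2164, 2382 and 1898 in PICs and 334, 354 and 547 in satellite cells, a log2 difference of 2.41 (limma, adjusted p = 0.000438). Bcl9l differed by 1.10 (limma, adjusted p = 0.0431) and lost its call on leaving out any array but PIC replicate 3 (adjusted p from 0.0509 to 0.131). The call was also lost with no filter on low values (limma, adjusted p = 0.185) and without both arrays numbered 1 (0.123). With 16 added before log2, Bcl9l fell under 2-fold (0.98). Ctnnb1, which encodes beta-catenin, read 17461, 15444 and 17851 against 17598, 18930 and 19771, a log2 difference of -0.15 (95% interval -0.43 to 0.13; limma, adjusted p = 0.328).

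Target genes of the beta-catenin branch moved in both directions, with 3 of 7 tested genes called towards PICs and 2 towards satellite cells (median 0.95). The feedback inhibitor genes Nkd2, Nkd1 and Apcdd1 were higher in PICs. Nkd2 read 94, 159 and 128 against 10, 15 and 13 and was at least 7.76-fold higher, while Nkd1 and Apcdd1 differed by 2.70 and 2.18. Nkd1 read 31, 20 and 12 in satellite cells, near the low value level. Tnfrsf19 differed by -1.93 and the cyclin gene Ccnd1 by -1.09. Ccnd1 (limma, adjusted p = 0.0426) was not called without PIC replicate 2 or 3 or satellite replicate 1 or 2, at adjusted p from 0.0697 to 0.131. Nor was Ccnd1 called with no filter on low values, with the mean of its probe sets or without both arrays numbered 1. The adjusted p values (limma) were then 0.183, 0.0984 and 0.117. Myc differed by -1.61 (limma, adjusted p = 0.0718) and was called with the replicate block (adjusted p = 0.00172). It was also called higher in satellite cells with array weights, without PIC replicate 3 and without both arrays numbered 3 (limma, adjusted p = 0.00211, 0.022 and 0.0286). Axin2, the target read most often for this branch, differed by 0.95 (95% interval 0.12 to 1.78; limma, adjusted p = 0.0617). It was called higher in PICs without satellite replicate 3 (1.23), without both arrays numbered 3 (1.35) and with array weights (1.43).

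The polarity and calcium branch had 6 of 13 tested genes called towards PICs and 1 towards satellite cells (median 0.81). Daam2 (2.66), Nfatc4 (2.48), Vangl1 (2.19) and Prickle2 (2.06) had the largest differences. Vangl1, a membrane protein of planar polarity, read 337, 315 and 317 in PICs and 69, 68 and 75 in satellite cells (limma, adjusted p = 0.000105). Scrib, a polarity scaffold, was higher in satellite cells, at -1.22 (limma, adjusted p = 0.000395). Daam2 read 164, 176 and 55 in PICs and 32, 15 and 13 in satellite cells, so the size of its fold rests on values near the floor. Daam2 was not called with no filter on low values (limma, adjusted p = 0.066). Invs lay just past 2-fold at 1.01. It fell under 2-fold without PIC replicate 2 (0.95), PIC replicate 3 (0.99), satellite replicate 1 (0.92) or satellite replicate 3 (0.98). The same held with 16 added before log2 (0.87), with quantile normalization once more (0.97) and with array weights (0.93). It also held without both arrays numbered 1 (0.99) or 3 (0.96).

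**Figure D4:**
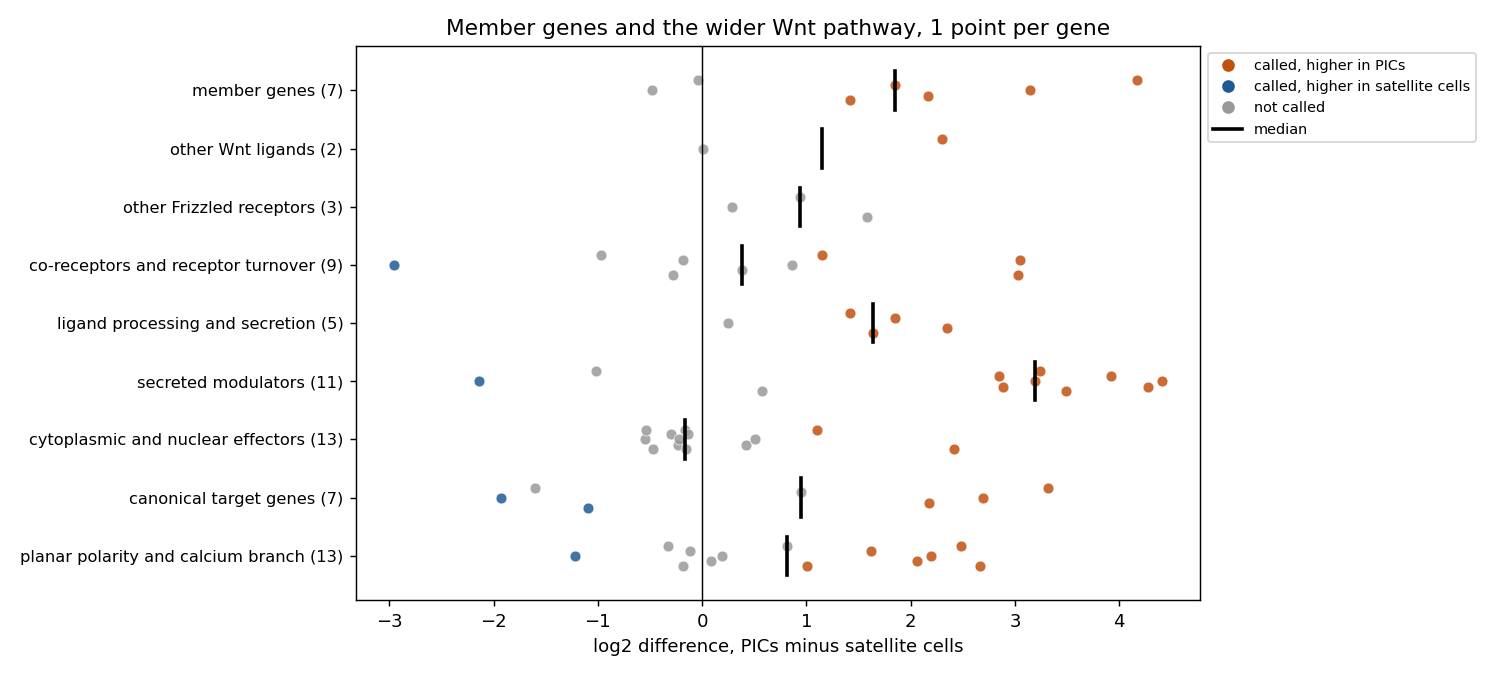
Each point is the log2 difference, PICs minus satellite cells, of 1 gene on its probe set of highest mean; bars are list medians and numbers in brackets are genes tested. Fitted values are shown also for Wnt6, Rspo1, Rspo3 and Nkd2, whose satellite arrays all lie at or under the low value level. Secreted modulators have the highest median (3.20) and cytoplasmic and nuclear effectors lie around -0.17.

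The genes most alike to Wnt5a and to 1 Frizzled member were found by the Pearson correlation of log2 values over the 6 arrays, among 10851 genes. Fzd4 was taken for its probe set mean over the 6 arrays (log2 10.40, against 10.38 for Fzd2 on 1418534_at), which only picks a probe set and does not rank the receptors. The points share the 2 populations, so a gene that parts them scores high, and 1721 genes had a correlation above 0.95 with Wnt5a on 1436791_at. The closest were Angptl1, Abca9, Hsd11b2, Runx1t1 and Lama4, at 0.9995 to 0.9998. All 5 were called higher in PICs, and all were highest among satellite arrays on replicate 3, as this Wnt5a probe set was. Both traits follow from picking genes by their correlation with it and are no separate result. Angptl1 read 1316, 1019 and 2077 on the satellite arrays. For Fzd4 on 1419301_at, 66 genes had a correlation above 0.95. The closest were Zfr (0.995), Igf1r (0.992), Mbnl2 (0.992), Rsf1 (0.992) and Actb (0.992), none of them called and each lowest on replicate 3 in both populations. These traits too follow from the way the genes were picked.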

How the data were processed

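Total RNA of 3 PIC and 3 satellite cell samples was measured on 1-colour Affymetrix arrays, with cRNA made from 200 ng per the labels' protocols. The authors deposited 1 intensity per probe set and array, from GCRMA per the submitters' processing notes (background correction, quantile normalization and summary; version not given in the sources used here). The values are linear, rounded to whole numbers and at least 2, and were taken to log2. Rounding makes low steps coarse, and GCRMA narrows the spread of unexpressed probe sets.

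Symbols came from the platform annotation (34945 probe sets with 1 symbol, 932 with several, 9160 with none), 34741 of them matched by gene number to RefSeq names of GRCm38.p6. Differences were tested with limma 3.58.1 in R 4.3.3 (lmFit and eBayes, two-sided, adjusted over 20606 probe sets, named or not), after a check on simulated data. With every array of a population at 4 or less on the log2 scale, the fold is written as "at least". Plots were drawn with matplotlib 3.10.9.

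Genes named are all members, from each pathway list up to 4 called genes of largest difference per direction, and the 5 most alike genes. Other named genes were picked with their values in view. The members and lists were chosen with earlier results of these data known.

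Arrays of 1 population correlated at 0.955 to 0.986 and arrays of different populations at 0.836 to 0.876. Deviations from population means correlated at 0.617, 0.293 and 0.640 for arrays of equal replicate number, and at -0.595 to 0.156 otherwise. Deviations cancel out within each population by construction, so positive values for some pairs go with negative values for others. A pairing is thus read from the data only and is not given by the labels, and the replicate block is an alternative. Alternatives covered the filter, pseudocount, normalization, trend, array weights, gene level, the block and leaving out arrays. Scan dates and detection calls were not used here.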

Additional observations from a re-analysis of the deposited data

How the results depend on the processing

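The 10 called member probe sets were called in the same direction under every alternative run for them, 15 for every probe set and 2 more, at the gene level, for those of highest mean; the alternatives without both arrays numbered 1 or 3 were chosen after seeing the data. Wnt5a 1436791_at ranged from 3.89 to 4.55, Fzd2 1418534_at from 3.08 to 3.26, Fzd8 1423348_at from 2.09 to 2.26, Fzd7 from 1.72 to 1.97 and Fzd1 from 1.32 to 1.55. The mean of a gene's probe sets, which is another measure, gave 4.05 for Wnt5a, 3.28 for Fzd2 and 2.72 for Fzd8. Wnt9a and both Fzd4 probe sets were called under none of these, and with 1 array left out Wnt9a ranged from -0.27 to 0.12 and Fzd4 1419301_at from -0.83 to 0.018. The sign of Wnt9a turned without PIC replicate 2 (0.04), satellite replicate 1 (0.12), satellite replicate 2 (0.02) or both arrays numbered 1 (0.15), and that of Fzd4 1419301_at without PIC replicate 3. Fzd4 1434756_at stayed lower in PICs in all 15 alternatives run for it, from -0.79 to -0.19. With array weights it differed by -0.42, under 2-fold (limma, adjusted p = 0.0121). At the gene level there were 5 member genes called higher in PICs both with the probe set of highest mean and with the mean of probe sets, since each gene then counts once; calls over all genes were 3230 and 3219, against 5566 over all probe sets. With the replicate block, 10 member probe sets were called towards PICs and 0 towards satellite cells, of 5834 called in all, and the calls of Fzd5 and Myc were gained. It changed no other call of a member or pathway gene. Low values limit what can be said of 9 member probe sets, and 3 arrays per population limit the precision of every mean.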
